A study of Mus musculus with 52 samples.

Results

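Vehicle-treated mouse neurons after 60 min of neuronal activity were compared with unstimulated vehicle neurons kept for 1 h, by chromatin immunoprecipitation with sequencing (ChIP-seq) of RNA polymerase II (Pol II) at transcription start sites (TSSs). The members are the 2 Pol II libraries labelled 60 min and the 2 labelled unstimulated 1 h in the DMSO arm, 4 of the 31 Pol II libraries and of the 52 samples of the series. All are primary cultures from CD1 mice, and every vehicle culture carries DMSO. The labels name neither the stimulus nor the brain region or age of the donors. A parallel arm held U0126, which blocks MEK1/2, the kinases upstream of ERK, and it is used below at 60 min and in its own unstimulated 1 h group. Vehicle libraries of 1, 10 and 30 min share the unstimulated 1 h reference, and those of 180 and 360 min have an unstimulated 6 h reference, with 2 libraries in each group. The labels do not tie replicates to separate cultures, and the spread behind each p-value may therefore be technical.

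The deposited values are a normalized Pol II density in windows of 600 bp around each TSS (mm9 build), for 24194 gene symbols. Of these, the 12097 with the higher mean density were tested on a log2 scale. Library depth is unknown, because the table holds no counts. Between replicates of a group, densities correlated across genes with r = 0.860 at 60 min and 0.811 in unstimulated neurons. Windows at 0 made up 3.98% and 1.53% of all windows in the 60 min libraries, against 1.32% and 1.00% in the unstimulated libraries. The vehicle 30 min replicate 1 library stood apart with 11.5%, against 1.64% in replicate 2, and the main results that rest on the 30 min group are also given without it. All 15 pan-neuronal marker genes passed the filter, among them Stmn2, Syt1, Gap43 and Nefl. Of 12 marker genes each, 5 passed for astrocytes, 5 for oligodendrocytes, 1 for microglia and 1 for endothelial cells and fibroblasts.

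Neuronal firing admits calcium and activates CREB, SRF and MAP kinase signalling, which switch on immediate-early genes without new protein synthesis. Their products, mainly transcription factors, act on later genes for secreted factors, synaptic proteins and feedback regulators. Pol II at a TSS reports recruited and paused polymerase, and so the transcription machinery at the promoter rather than the amount of mRNA. The cAMP response element, the site of CREB, has TGACG as its half-site. The promoters of 4 activity genes that marked the 60 min libraries are printed from 250 bases before to 50 bases after the annotated start, from RefSeq on GRCm38.p6, to show where this half-site lies. Capitals mark TGACG on either strand, and overlapping matches on the 2 strands run together.
Nr4a1, chr15:101266596-101266895, plus strand: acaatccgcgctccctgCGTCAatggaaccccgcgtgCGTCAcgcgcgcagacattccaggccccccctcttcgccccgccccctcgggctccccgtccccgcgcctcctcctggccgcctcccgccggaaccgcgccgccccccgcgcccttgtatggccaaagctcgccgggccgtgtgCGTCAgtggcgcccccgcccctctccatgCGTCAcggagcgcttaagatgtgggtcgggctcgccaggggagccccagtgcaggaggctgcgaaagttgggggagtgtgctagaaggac
Nr4a2, chr2:57123954-57124253, minus strand: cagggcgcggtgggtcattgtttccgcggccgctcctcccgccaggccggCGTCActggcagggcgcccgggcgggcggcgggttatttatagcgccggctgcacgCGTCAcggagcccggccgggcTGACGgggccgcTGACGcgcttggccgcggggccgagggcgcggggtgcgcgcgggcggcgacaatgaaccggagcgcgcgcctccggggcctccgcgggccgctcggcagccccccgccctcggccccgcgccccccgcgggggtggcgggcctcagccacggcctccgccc
Npas4, chr19:4989922-4990221, minus strand: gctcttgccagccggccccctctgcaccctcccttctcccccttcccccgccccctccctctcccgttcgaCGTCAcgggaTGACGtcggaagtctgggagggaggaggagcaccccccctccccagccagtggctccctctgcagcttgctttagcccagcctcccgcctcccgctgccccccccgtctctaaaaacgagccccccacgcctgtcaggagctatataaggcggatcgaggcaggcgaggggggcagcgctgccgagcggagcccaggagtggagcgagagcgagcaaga
Pcsk1, chr13:75089607-75089906, plus strand: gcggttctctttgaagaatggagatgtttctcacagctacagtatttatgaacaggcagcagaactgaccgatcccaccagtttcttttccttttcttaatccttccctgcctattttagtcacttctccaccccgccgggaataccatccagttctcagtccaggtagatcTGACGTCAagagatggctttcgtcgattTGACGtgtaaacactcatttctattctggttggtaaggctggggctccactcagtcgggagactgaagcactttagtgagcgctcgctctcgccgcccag
The half-site occurred 4 times in Nr4a1, 4 times in Nr4a2, 2 times in Npas4 and 3 times in Pcsk1. Of the 17 protein-coding genes that rose at 60 min (below), 14 had a promoter in the RefSeq table, and 11 of these 14 held the half-site in at least 1 promoter. Among 9565 tested genes with a promoter, 37.3% did, and among all 32851 promoters, 20.8% did. An AP-1 site, TGANTCA, was in 0 of the 14 and in 7.81% of all promoters. The promoters of Ovca2, Mmp23 and Tcp11l2 held no match to TGACG in this window. These matches describe letters and not binding.

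At 60 min of activity, 19 genes had higher Pol II density than in unstimulated neurons and 0 had lower density (limma, Benjamini-Hochberg adjusted p under 0.05, the call used throughout). The 19 are 0.157% of the genes tested. They are the orphan nuclear receptors Nr4a1, Nr4a2 and Nr4a3, the transcription factors Egr1, Fos, Npas4 and Maff, the microRNA genes Mir132 and Mir212, the phosphatase Dusp1, and Ovca2, Mmp23, Pcsk1, Tcp11l2, Dgat1, Gls2, Cyr61, Grin1 and Adpgk. The ratio of mean density at 60 min to that in unstimulated neurons ranged from 2.36 to 5.28 with a median of 3.21. In all 19, both libraries at 60 min lay above both unstimulated libraries. That held for 25.9% of all genes tested, so it does not by itself set the 19 apart. At an unadjusted p under 0.05, 777 genes were higher and 513 lower. The count rests on all 4 libraries: 7 genes were called without 60 min replicate 1, 8 without 60 min replicate 2, 3 without unstimulated replicate 1 (Mir132, Mir212 and Ovca2) and 22 without unstimulated replicate 2, 11 of them among the 19. Adpgk, Cyr61, Gls2, Maff, Mmp23 and Pcsk1 were called in none of these.

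**Figure D1:**
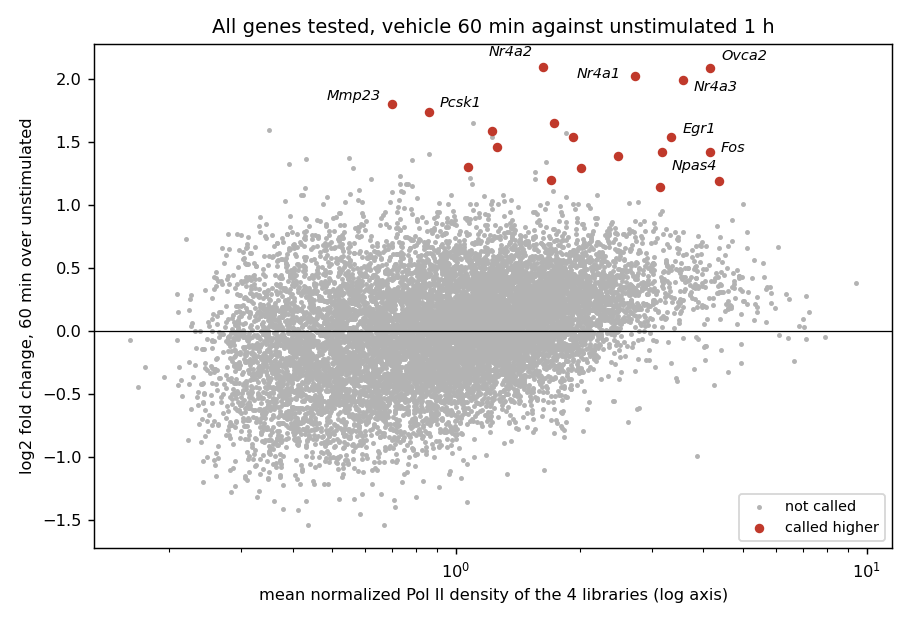
Each point is 1 of the 12097 genes tested, with its mean normalized Pol II density over the 4 libraries on the log x axis and its log2 fold change, vehicle 60 min over unstimulated 1 h, on the y axis. Red points are the 19 genes called higher, with log2 fold changes between 1.15 and 2.10, and grey points are genes not called.

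The fold change moved with the density of a gene. In the quartile of tested genes with the lowest mean density the median log2 fold change was -0.18, in the next quartiles -0.05 and 0.06, and in the highest quartile 0.21. Of the 19 genes, 13 lie in the highest quartile. The part of this trend in the fold changes below was not tested, except that 16 of the 19 were also called after quantile normalization and 14 after cyclic loess.

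The 3 members of the NR4A family, orphan nuclear receptors that act as immediate-early transcription factors, were among the 4 genes with the greatest log2 fold change. Nr4a1 (window chr15:101096976-101097576) had densities of 4.11 and 4.87 at 60 min, against 0.775 and 1.19 in unstimulated neurons. Its log2 fold change was 2.02 ± 0.30 (SE, 2 libraries per group) with a limma adjusted p of 3.2e-04. Nr4a2 (chr2:56967149-56967749) had 2.76 and 2.69 at 60 min, against 0.329 and 0.756 unstimulated, a log2 fold change of 2.10 ± 0.32 (limma adjusted p = 3.6e-04). Nr4a3 (chr4:48057876-48058476) had 6.15 and 5.47 at 60 min, against 1.07 and 1.60 unstimulated, a log2 fold change of 2.00 ± 0.30 (limma adjusted p = 3.6e-04). The lower of the 60 min libraries exceeded the higher unstimulated library in each of the 3 genes. A second Nr4a2 window, at another start, had a log2 fold change of 0.37, with 0.480 and 0.244 at 60 min, against 0.154 and 0.318 unstimulated, so there the groups overlapped.

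The transcription factors of the rapid response also stood higher. Fos, the partner of Jun in AP-1, had 6.56 and 5.72 at 60 min, against 2.00 and 2.30 in unstimulated neurons, a log2 fold change of 1.42 ± 0.23 (limma adjusted p = 9.0e-04). Egr1, a zinc finger factor, had 6.04 and 4.17 at 60 min, against 1.57 and 1.61 unstimulated, a log2 fold change of 1.54 ± 0.26 (limma adjusted p = 0.0018). Npas4, a neuron-restricted factor induced by calcium entry, had 4.52 and 4.92 at 60 min, against 1.55 and 1.71 unstimulated. Its log2 fold change was 1.42 ± 0.25 (limma adjusted p = 0.0023). Maff, a small Maf protein, had 1.69 and 2.17 at 60 min, against 0.513 and 0.536 unstimulated, a log2 fold change of 1.59 ± 0.33 (limma adjusted p = 0.031). The unstimulated libraries of these 4 genes were close together, and none overlapped the 60 min libraries.

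Neighbouring windows of 3 genes on chromosome 11 were called. Mir212 (chr11:74986589-74987189) and Mir132 (chr11:74986883-74987483) encode microRNAs made from 1 primary transcript, known as CREB targets that shape the growth of dendrites. Their windows share 306 bp and so share reads. The mature products carry the same seed (bases 2 to 8, in capitals), which is shown because both genes were called.
mmu-miR-132-3p: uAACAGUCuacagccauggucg
mmu-miR-212-3p: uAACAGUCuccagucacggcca
Mir212 had densities of 3.17 and 2.75 at 60 min, against 1.03 and 0.779 in unstimulated neurons, a log2 fold change of 1.54 ± 0.23 (limma adjusted p = 3.2e-04). Mir132 had 2.49 and 2.93 at 60 min, against 0.925 and 0.582 unstimulated, a log2 fold change of 1.65 ± 0.26 (limma adjusted p = 8.7e-04). Ovca2, which encodes a serine hydrolase and is annotated on the opposite strand, has its window centre 5127 bp from that of Mir132 (chr11:74992010-74992610). It had the highest density of the 19 genes at 60 min, 6.86 and 6.80, against 1.87 and 1.12 in unstimulated neurons. Its log2 fold change was 2.09 ± 0.30 (limma adjusted p = 3.2e-04). Mir212 and Ovca2 were the 2 genes that stayed called in all 16 alternative analyses.

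The other 9 genes include enzymes, a secreted protein and a receptor subunit. Pcsk1, the prohormone convertase that cuts neuropeptide precursors, had 1.53 and 1.28 at 60 min, against 0.253 and 0.366 in unstimulated neurons, a log2 fold change of 1.74 ± 0.38 (limma adjusted p = 0.045). Mmp23, a membrane-anchored metalloproteinase, had 1.21 and 1.14 at 60 min, against 0.210 and 0.235 unstimulated, a log2 fold change of 1.80 ± 0.39 (limma adjusted p = 0.038). These are the 2 lowest mean densities at 60 min among the 19. Dusp1, a phosphatase that inactivates MAP kinases, had 6.64 and 5.68 at 60 min, against 2.13 and 3.05 unstimulated, a log2 fold change of 1.19 ± 0.25. Cyr61, a matrix protein gene responsive to SRF and YAP, had 3.12 and 2.77 at 60 min, against 1.03 and 1.14 unstimulated, a log2 fold change of 1.30 ± 0.25. Grin1, the obligate subunit of NMDA receptors, had 3.02 and 1.89 at 60 min, against 1.17 and 0.742 unstimulated, a log2 fold change of 1.20 ± 0.26. Its libraries at 60 min differed more from each other than those of Dusp1 and Cyr61. Metabolic enzymes were represented by Dgat1 for triglyceride synthesis, Gls2 for glutamine breakdown and Adpgk, an ADP-dependent glucokinase. Their log2 fold changes were 1.40 ± 0.29, 1.30 ± 0.29 and 1.15 ± 0.24. Tcp11l2 had 1.89 and 1.95 at 60 min, against 0.442 and 0.765 unstimulated, a log2 fold change of 1.46 ± 0.29.

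**Figure D2:**
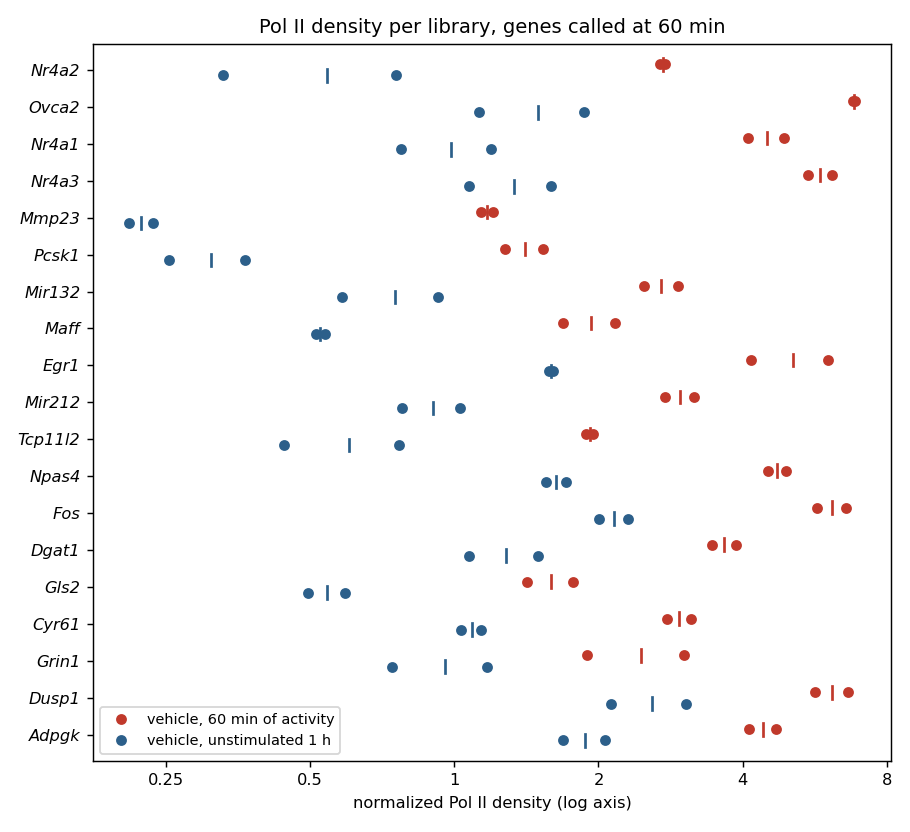
Normalized Pol II density (log axis) of the 19 genes called at 60 min, with 1 point per library and a bar at the group mean. Red points are the vehicle 60 min libraries and blue points, drawn below them, are the unstimulated 1 h libraries, and in each row the red points lie to the right of the blue points.

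Every gene called at 60 min had also been called at 30 min, so in this fit no rise was new at 60 min. A rise counted as new only where the difference from 30 min was also called. Other settings gave up to 13 genes called at 60 min and at neither 10 nor 30 min, which alone does not make them new. At 10 min 22 genes (0.182%) and at 30 min 150 genes (1.24%) had been called higher, and at 1, 180 and 360 min 0 genes were. Of the 19, 8 were called at 10, 30 and 60 min, namely Egr1, Fos, Maff, Mir132, Mir212, Npas4, Nr4a1 and Nr4a3. The other 11 were called at 30 and 60 min but not at 10 min. These comparisons share the unstimulated libraries, so their overlap is no independent evidence. The 30 min calls also depend on 1 library. Without vehicle 30 min replicate 1, 9 genes were called at 30 min, all among the 19, and 10 of the 21 genes then called at 60 min were at neither 10 nor 30 min. The 9 were Egr1, Fos, Maff, Mir132, Mir212, Nr4a1, Nr4a2, Nr4a3 and Ovca2. In vehicle 30 min replicate 2 alone, all 19 genes lay above the unstimulated mean, with a median difference of 1.48 on the log2 scale, against 2.13 in replicate 1.

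The rises followed different courses within the 19. At 1 min the log2 fold changes of the 19 ran from -0.21 to 1.10 with a median of 0.27, none called. Egr1 had its greatest log2 fold change at 10 min, 2.37, with 1.87 at 30 min (1.51 without replicate 1) and 1.54 at 60 min. The density of Egr1 at 60 min was above that at 1 min by 0.44 on the log2 scale, which was not called. Mir132 stood at 2.02 at 10 min, with 2.04 at 30 min (1.95 without replicate 1), 1.65 at 60 min and -0.01 at 180 min. Mir212 took a like course, with 2.05, 1.99 (1.90 without 30 min replicate 1), 1.54 and 0.33 at these times. The log2 fold change of Ovca2 was -0.12 at 10 min. It stood at 2.48 at 30 min (1.89 without replicate 1), with 2.09 at 60 min and -0.05 at 180 min. Its density at 60 min was above that at 10 min by 2.21 ± 0.30 on the log2 scale (limma adjusted p = 1.8e-04), although its neighbours Mir132 and Mir212 were already high at 10 min. The log2 fold change of Pcsk1 was 0.35 at 10 min, then 1.78 at 30 min (1.39 without replicate 1) and 1.74 at 60 min. It was 1.11 at 180 min and 1.07 at 360 min, neither called. Nr4a1, Nr4a2, Nr4a3 and Npas4 had values between 0.92 and 1.26 at 180 min, none called.

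**Figure D3:**
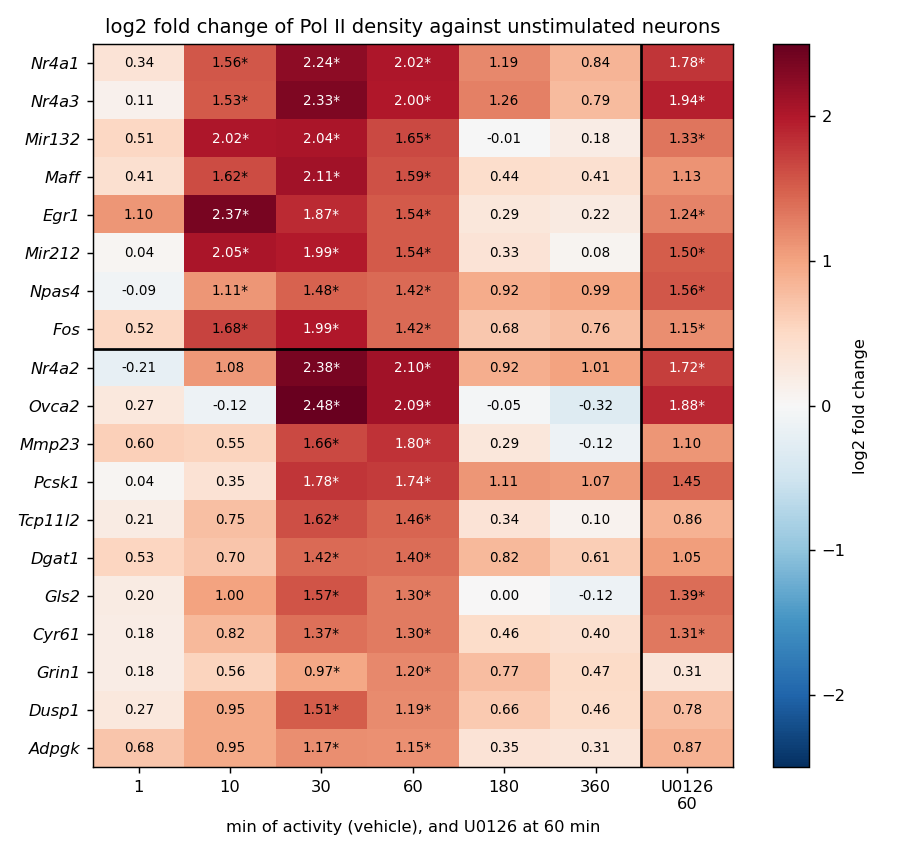
Log2 fold changes of the 19 genes called at 60 min, at 1, 10, 30, 60, 180 and 360 min in vehicle and at 60 min in U0126, each against its own unstimulated libraries. An asterisk marks a limma adjusted p under 0.05, the line across separates the 8 genes called at 10, 30 and 60 min from the 11 not called at 10 min, and no gene is marked at 180 or 360 min.

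Set directly against each other, no gene was called between 60 min and 30 min (0% in either direction, limma, with 191 genes higher and 219 lower at an unadjusted p under 0.05). Without 30 min replicate 1, 0 genes were called, and 256 were higher and 163 lower at that p. Against 10 min, 2 genes (0.0165%) were higher and 1 (0.00827%) was lower at 60 min. The higher ones were Ovca2 and Stard4, a carrier of cholesterol between membranes. Stard4 had densities of 2.18 and 2.32 at 60 min, against 0.669 and 0.543 at 10 min, a difference of 1.66 ± 0.30 (limma adjusted p = 0.018). Its unstimulated densities were 0.935 and 0.800, and its log2 fold change of 1.21 at 60 min did not pass the test (adjusted p = 0.12). The lower one was Rdm1, named for its RAD52 motif, with 1.88 and 3.40 at 60 min, against 7.11 and 7.59 at 10 min, a difference of -1.50 ± 0.24 (limma adjusted p = 0.0037). Its unstimulated densities of 5.57 and 4.58 lay between these. With no filter on density, the difference of Rdm1 was -1.26 and was not called (limma adjusted p = 0.29). In that fit 2 genes were called between 60 and 10 min. Against the 1 min libraries, a comparison added after seeing the data, 14 genes (0.116%) were higher and 5 (0.0413%) lower at 60 min, and 7 of the 19 were among the 14.

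Of the 154 genes called higher at 10 or 30 min, 135 were not called at 60 min, and for none of them was the difference from the earlier time called. The 131 called at 30 min and not at 60 min were all positive at 60 min, with a median log2 fold change of 0.68, against 1.00 at 30 min, and 110 had an unadjusted p under 0.05 at 60 min. In vehicle 30 min replicate 2 alone their median was 0.74, and 60 min lay below it by a median of 0.08, against 0.63 for replicate 1. The 14 genes called at 10 min and not at 60 min had a median of 0.69 at 60 min, against 1.19 at 10 min. Both sets were chosen for high values at the earlier time, against the same unstimulated libraries, and for no call at 60 min. Their positive values and their lower medians at 60 min are therefore partly built in. Egr3, a zinc finger factor, had 2.26 at 10 min, 1.43 at 30 min (1.51 without replicate 1) and 0.62 at 60 min. Actb, for cytoplasmic actin, had 0.38 at 60 min, against 0.97 at 10 min, and Flna, for an actin crosslinker, had 0.44 at 60 min, against 1.07 at 10 min. Fosb, an AP-1 subunit, was at 1.57 at 60 min (limma adjusted p = 0.11), against 1.86 at 10 min. Its densities were 2.69 and 2.92 at 60 min, against 0.506 and 1.29 in unstimulated neurons. Homer1, which encodes a postsynaptic scaffold, was at 0.84 at 60 min, against 1.57 at 10 min.

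No gene was called lower at 60 min (0% of those tested, limma). Of the 5 negative values with the lowest unadjusted p, 1 is of a predicted gene and the others are Hivep3 at -1.45 ± 0.35, Mical3 at -1.39 ± 0.36, Dusp28 at -1.34 ± 0.35 and Rdm1 at -0.99 ± 0.24. Hivep3 is a zinc finger DNA-binding protein and Mical3 an actin-oxidizing enzyme. Hivep3 had 0.282 and 0.205 at 60 min, against 0.666 and 1.19 in unstimulated neurons. At 30 min 22 genes (0.182%) had been called lower, and 18 of them were lower at 60 min with an unadjusted p under 0.05. Both times share the unstimulated libraries, so this overlap is no independent evidence. Without 30 min replicate 1, 1 gene was called lower at 30 min, and of the 22 none was called, though all 22 stayed negative.

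The gene lists were described by counts and medians beside the median of all genes tested, 0.03. Of all genes tested 0.157% were called higher. Positive values made up 33.8% of genes in the lowest quartile of density and 75.2% in the highest. The highest quartile, with a median of 0.21, holds 15 of the 22 rapid and 16 of the 31 delayed genes tested. The lowest holds 7 of the 11 late and secreted genes tested. Of 23 rapid immediate-early genes 22 passed the filter on density, and of these 7 rose, 20 were positive and the median log2 fold change was 0.73. Of the 15 not called, Junb had 7.33 and 6.14 at 60 min, against 2.48 and 4.09 unstimulated, a log2 fold change of 1.01 (limma adjusted p = 0.067). Arc, an effector at synapses, was at 0.38, and Egr2 at -0.02. Of 32 delayed activity-regulated genes 31 were tested, of which 30 were positive, with a median of 0.67, and 4 rose. These were Nr4a2, Nr4a3, Mir132 and Mir212. Nr4a3, Mir132 and Mir212 were already called at 10 min, so the list name does not give their timing here. The windows of Mir132 and Mir212 share 306 bp. Sik1, a kinase that restrains CREB coactivators, was at 1.36 and Rgs2, a regulator of G proteins, at 0.93, neither called. Of 25 late and secreted genes 11 were tested, and Pcsk1 alone was called and 9 were positive, with a median of 0.58, and Vgf, a neuropeptide precursor, was at 1.03. These lists were chosen with earlier results known, and how the study chose its own rapid and delayed TSS sets is not given in the sources used here, so the counts are not independent evidence. Of 18 tested rapid TSSs of the study 5 were called (27.8%), and of 72 delayed ones 2 (2.78%). Of 656 tested control TSSs 0 were called, and of 11351 others 12 (0.106%). Maff and Nr4a3 were tested at windows outside the study's sets that overlap a rapid window by 442 bp and a delayed window by 526 bp.

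Of 27 ERK feedback and ERK target genes 24 were tested, of which 0 were called and 19 were positive. Their median was 0.54, against 0.19 in the U0126 arm, a difference that was not tested for the list. Fosl2, Fosl1 and Dusp5, encoding AP-1 subunits and an ERK phosphatase, were at 1.41, 1.37 and 1.35 (limma adjusted p = 0.14, 0.21 and 0.072). Of 16 tested among 19 SRF and actin cytoskeleton genes 0 were called and the median was 0.22, with Ctgf at 1.38. Of 11 tested among 25 potassium, sodium and calcium channel genes 0 were called, 1 was positive and the median was -0.28. With no filter on density it was 0.06 over all 25, beside a median of 0.13 over all genes of that fit. The median of the 12097 genes itself moved to 0.31. Kcnv1, a modulatory potassium channel subunit, had 0.340 and 0.218 at 60 min, against 0.739 and 0.811 in unstimulated neurons, a log2 fold change of -1.16. Of the 11 channel genes 9 are in the lowest quartile of density, whose own median was -0.18. Of 12 tested among 18 excitatory synapse genes Grin1 alone was called, 4 were positive and the median was -0.05, with Gria1, a glutamate receptor subunit, at -0.43. Small positive medians without a call were 0.37 in 32 ribosomal protein genes and 0.33 in 14 stress and heat shock genes. After quantile normalization these were 0.11 and 0.08, and with no filter on density 0.65 and 0.59. All 32 ribosomal protein genes are in the highest quartile, whose median was 0.21. For the remaining lists 0 genes were called, and the medians were 0.05 in 15 pan-neuronal genes, 0.13 in 10 GABAergic neuron genes, 0.22 in 10 cell cycle genes, 0.09 in 5 astrocyte genes and 0.14 in 5 oligodendrocyte lineage genes. Cd68 of microglia was at 0.63 and Pdgfrb of the endothelial and fibroblast list at -0.50, neither called. Over all 12 genes of each list, the summed density of the astrocyte genes was 6.97 and 6.21 at 60 min, against 5.72 and 6.16 unstimulated. For oligodendrocyte genes it was 6.46 and 4.54, against 4.93 and 5.46 unstimulated, and for microglial genes 2.72 and 2.70, against 2.46 and 2.73 unstimulated. For endothelial and fibroblast genes it was 1.76 and 1.47, against 2.83 and 2.05 unstimulated. Only 1 of these 12 genes passed the density filter, and the lowest quartile of tested genes had a median of -0.18. The part of that trend in this sum was not tested. No gene of these lists was at 0 in all 4 libraries, and the part of other cells in the results was not tested. In bulk cultures, a change in the share of a cell type and a change per cell cannot be told apart.

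**Figure D4:**
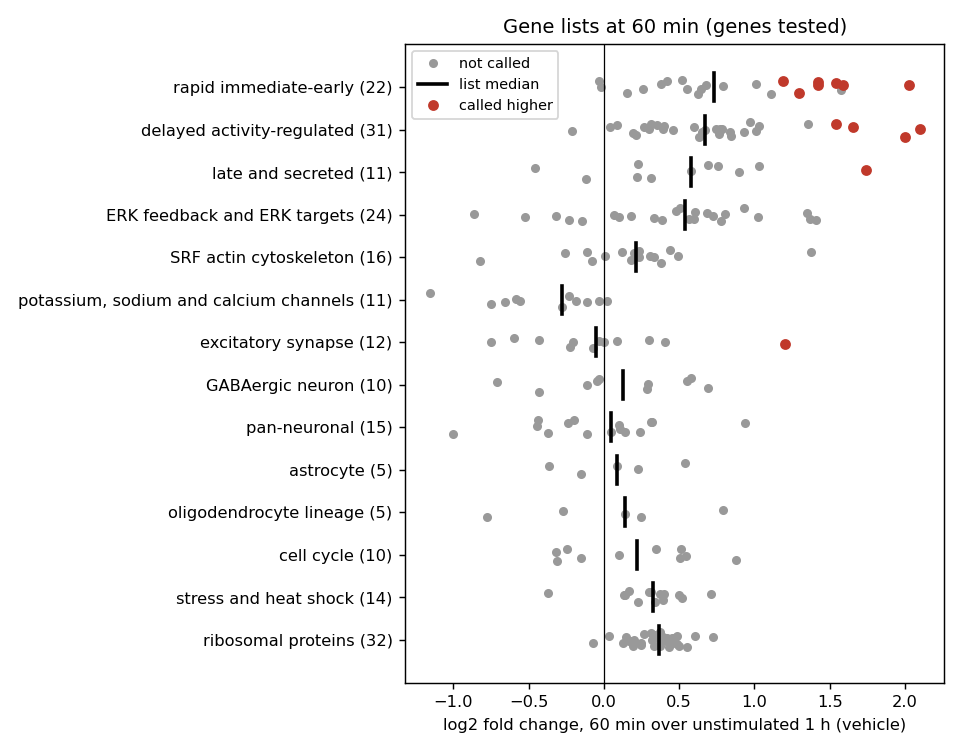
Log2 fold change of Pol II density, vehicle 60 min over unstimulated 1 h, for the tested genes of each list with at least 5 of them, with their number in parentheses. Each point is a gene, red where called higher, and black bars are list medians, which run from -0.28 for the channel genes to 0.73 for the rapid genes.

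The same comparison within the U0126 arm shows how much of the 60 min response was measured with MEK inhibited, and the 2 arms share no libraries. In U0126, 14 genes (0.116%) were called higher and 0 lower, and 11 genes were called in both arms, 11 of the 19 in vehicle and 11 of the 14 in U0126. Nr4a3 had a log2 fold change of 2.00 ± 0.30 in vehicle and 1.94 ± 0.30 in U0126, Ovca2 2.09 ± 0.30 and 1.88 ± 0.30, and Npas4 1.42 ± 0.25 and 1.56 ± 0.25. Grin1 differed most, at 1.20 ± 0.26 in vehicle and 0.31 ± 0.26 in U0126. The difference between arms was called for 0 of the 12097 genes (0%, limma; 288 at an unadjusted p under 0.05), and of the 19 only Grin1 had an unadjusted p under 0.05 for it. A missed call does not show that the arms respond alike. Over the 19, the difference, U0126 arm minus vehicle arm, ran from -0.89 to 0.14 with a median of -0.29, but the 19 were chosen for high values in vehicle, so this median is a description and no sign of a difference. Over all genes tested the median difference was 0.01. The other 3 were called in U0126 and not in vehicle. Pcna, a DNA replication clamp, was at 0.88 in vehicle and 1.07 in U0126. Elovl5, for fatty acid elongation, was at 1.00 in vehicle and 1.18 in U0126, and Myl6, a myosin light chain, at 0.65 in vehicle and 1.07 in U0126.

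**Figure D5:**
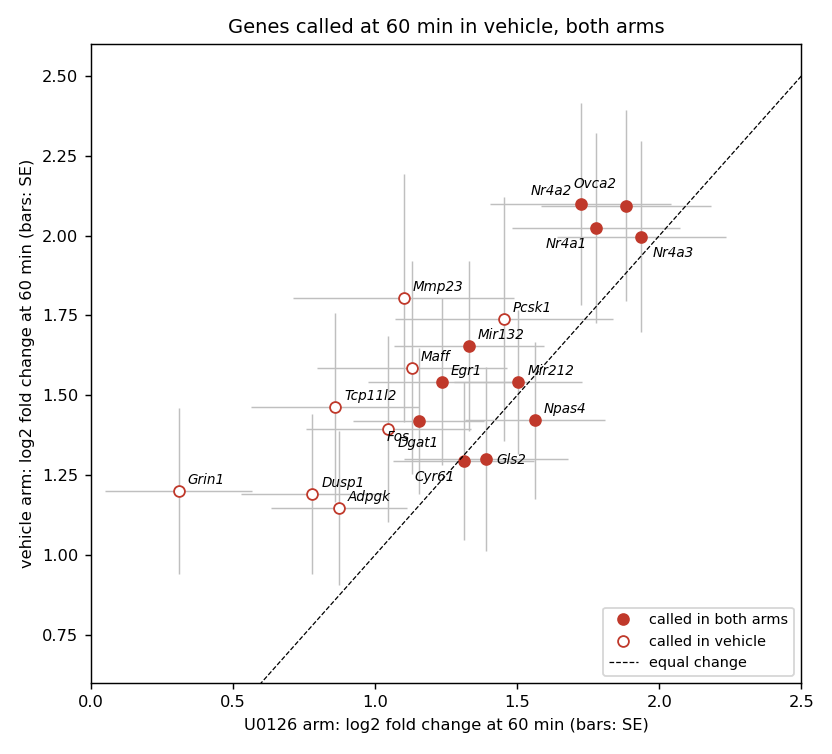
Log2 fold changes at 60 min of the 19 genes called in vehicle, with the vehicle arm on the y axis, the U0126 arm on the x axis and bars for the SE. Filled points are the 11 genes called in both arms, and 16 of the 19 points, chosen for their values in vehicle, lie above the dashed line of equal change.

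The histone acetylation mark H3K27ac, found on enhancers in use, was deposited as a signal for 940 regions with the nearest gene. At 60 min 0 of the 940 regions (0%) were called against unstimulated vehicle neurons (limma), with 31 higher and 6 lower at an unadjusted p under 0.05 and a lowest adjusted p of 0.29. Of the 19 genes, 9 were the nearest gene of at least 1 region, 50 regions in all. Of these 50, 32 were positive with a median log2 fold change of 0.16, beside 536 of all 940 and a median of 0.07. The region with the lowest p lies 37630 bp from Fos (chr12:86776490-86777950). Its signal was 4.01 and 3.59 at 60 min, against 0.767 and 1.49 in unstimulated neurons, a log2 fold change of 1.40 ± 0.29. The region 1024 bp from Npas4 had 4.35 and 3.58 at 60 min, against 1.45 and 1.41 unstimulated, a log2 fold change of 1.19 ± 0.33 (limma adjusted p = 0.83). All 4 regions nearest Npas4, 7 of the 10 nearest Fos and 4 of the 10 nearest Egr1 were positive. Both regions nearest Nr4a2 were negative, at -0.16 and -0.26. The nearest gene is taken as deposited, and a region assigned to Egr1 lies as far as 1478170 bp away.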

How the data were processed

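Pol II and H3K27ac ChIP-seq of primary neurons was analysed from the deposited tables. The Pol II values are a normalized signal, named Pol II density per the file headers, which also say that control TSSs were used by the authors for normalization. The H3K27ac values are a normalized signal deposited per enhancer region, whose scale is not given in the sources used here. Distances to the nearest gene, in bp per the file headers, are another kind of value and only describe regions. The submitters' processing notes name Bowtie2, SAMtools, bedtools and mm9. The 5 input libraries were not analysed here. No table holds counts, so depth is unknown and precision rests on replicates.

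The window with the highest mean stood for each gene, and genes at or above percentile 50 of mean density (0.301) were kept for testing. The log2 of the signal plus a pseudocount of 0.148 for Pol II and 0.628 for H3K27ac, which is percentile 25 of all values above 0, was centred on each library's median and compared with limma 3.58.1 in R 4.3.3. The fit had 1 mean per group over all 31 Pol II or 16 H3K27ac libraries and a variance trend. A fold change on this scale understates that of low densities. Calls have a Benjamini-Hochberg adjusted p under 0.05. The fit was tested on simulated data. Genes are named by rule: all called at 60 min, the markers Nr4a1, Nr4a2, Npas4 and Pcsk1, the rapid list, up to 4 of every other list by size of change, up to 10 per direction in the other comparisons, or the lowest p where none is called. The lists are rapid, delayed, late and secreted, ERK feedback, SRF and actin, channels, excitatory synapse, GABAergic, pan-neuronal, astrocyte, oligodendrocyte, cell cycle, microglia, stress, endothelial and fibroblast, and ribosomal genes. Members and lists were chosen with earlier results of these data known. Elovl5 and Myl6 were named after their values were seen.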

Additional observations from a re-analysis of the deposited data

How the results depend on the processing

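The 19 genes called higher at 60 min kept their direction in every alternative run for them, and all 19 stayed called with the pseudocount at percentile 50, with no filter, with no centring and with every TSS window tested. With the pseudocount at percentile 10, 16 stayed called (without Gls2, Mmp23 and Pcsk1), as did 14 of the 17 that lie in the upper quartile of all genes, 16 after quantile normalization and 14 after cyclic loess. The genes called higher and lower numbered 108 and 22 with a replicate block. They numbered 49 and 5 with only the compared groups in the fit. With the unstimulated 1 h and 6 h libraries together they numbered 46 and 6. Each of these counts of higher genes holds all 19. With only the vehicle 10, 30 and 60 min and unstimulated 1 h groups in the fit, 21 genes were called higher, 17 of the 19 among them. The labels do not say that replicate numbers mark a shared culture, and deviations of same-numbered libraries correlated with r = 0.18 between 60 min and unstimulated neurons, 0.15 between 60 and 30 min and 0.24 between 60 and 10 min. With 2 numbers per group this is a hint from the data and no established pairing. In each case 1 gene was called lower with the pseudocount at percentile 50, in the upper quartile of genes, after quantile normalization and after cyclic loess. With the 1 min libraries as reference, chosen after seeing the data, 14 genes (0.116%) were higher, 7 of the 19 among them, and 5 (0.0413%) lower. Leaving out 1 library gave between 3 and 22 genes higher and between 0 and 2 lower, with the lone library of a group assumed to vary like the other groups.

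Genes called at 60 min and at neither 10 nor 30 min, 0 as reported, numbered 2 with no filter, 1 with no centring, 4 after quantile normalization, 13 with the replicate block, 1 with only the vehicle 10, 30 and 60 min and unstimulated groups, 3 with both unstimulated references, and between 0 and 10 with 1 library left out (10 and 30 min libraries were left out after seeing the data). Calls between 60 and 30 min, 0 as reported, numbered 1 with the block and between 0 and 2 with 1 library left out. Calls between 60 and 10 min, 3 as reported, numbered 1 after quantile normalization, 11 with the block and between 1 and 11 with 1 library left out. Calls in the U0126 arm, 14 as reported, numbered 2 with no filter, 8 after cyclic loess, 65 with the block, 22 with only the compared groups and between 4 and 10 with 1 library left out. H3K27ac calls, 0 as reported, numbered 7 with the block. Of the list medians, that of the SRF and actin genes was 0.05 after quantile normalization and 0.46 with no filter, that of the excitatory synapse genes 0.03 and 0.02, and that of the pan-neuronal genes 0.01 and 0.33. With no filter the centring moves the median of the 12097 genes from 0.03 to 0.31, and the median of all genes in that fit was 0.13. The cause of the other shifts was not tested. Depth is unknown, and 2 libraries per group limit the precision.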

Other observations

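Genes of sterol synthesis and uptake, targets of the SREBP factors, were listed after the values of Stard4 were seen, so the list supports nothing by itself. Of 23 genes 21 were tested at 60 min, of which 0 were called (limma) and 20 were positive, with a median log2 fold change of 0.60. The median was 0.04 at 10 min and 0.49 at 30 min (0.18 without 30 min replicate 1), and 0.61 in the U0126 arm at 60 min. Sqle, squalene epoxidase, was at 0.69. Of the 21 genes, 12 are in the highest quartile of density, whose own median was 0.21.

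Gem, a small GTPase of the study's delayed set, was chosen after its values were seen. It had densities of 1.64 and 1.52 at 60 min, against 0.543 and 0.622 in unstimulated neurons, a log2 fold change of 1.21 ± 0.27 (limma adjusted p = 0.059). It was at 0.31 at 10 min and 0.61 at 30 min (0.72 without 30 min replicate 1). Gem was called at 60 min and at neither 10 nor 30 min with no filter and with no centring. The same held with the replicate block and with both unstimulated references. In the main fit its difference between 60 and 30 min, 0.60 ± 0.27, was not called. Its rise is therefore not shown to be new.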
